A study of Homo sapiens with 6 samples.

Results

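The nuclear-encoded genes of oxidative phosphorylation were followed in RNA immunoprecipitation sequencing (RIP-seq) of WaGa cells. They were chosen by gene name alone, as protein-coding genes named for subunits of complex I (*NDUFA*, *NDUFB*, *NDUFC*, *NDUFS* and *NDUFV*), complex III (*UQCR*), complex IV (*COX4* to *COX8*) and ATP synthase, or complex V (*ATP5F1*, *ATP5M* and *ATP5P*). Of 60655 genes in the count table, 83 had such a name. *COX7B2*, *COX6A2* and *COX7A1* had no count in any library, which left 80 genes. These were 37 genes of complex I, 9 of complex III, 15 of complex IV and 19 of complex V, with *NDUFA4* placed in complex IV, where its protein is now assigned. *COX7B2* and *COX7A1* belong to paralog pairs whose other members, *COX7B* and *COX7A2*, were present.

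WaGa is a Merkel cell carcinoma line, wild type per its label, and was grown without treatment. RNA was pulled down with an antibody against IGF2BP3, an RNA-binding protein that is mainly made in the embryo and in tumors, or with IgG as the negative control. There were 3 replicates labelled as independent for each antibody, and all 6 libraries came from this single line, so p-values measure the spread between these pulldowns and not between tumors. Because IgG IP libraries hold RNA that sticks without the target protein, and because each library is read as shares of its own total, a higher value means a larger share of the pulled-down RNA and not more RNA per cell. No input RNA was analysed here, and fewer cells with an mRNA cannot be told apart from less of it per cell.

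The respiratory chain passes electrons from NADH through complex I, ubiquinone, complex III, cytochrome c and complex IV to oxygen, and pumps protons that drive ATP synthase. Each of these complexes mixes subunits encoded in the nucleus and in mitochondrial DNA, so their mRNAs are made in separate compartments, and the nuclear ones are translated in the cytosol. In each complex a conserved core includes the subunits that carry the redox centres or the catalytic sites. Many small accessory subunits, most of them encoded by short and abundant mRNAs, surround it.

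The c subunit of ATP synthase shows why transcripts of this group must be read by gene. *ATP5MC1* (GRCh38, chr17:48892765-48895871, plus strand), *ATP5MC2* (chr12:53632726-53677408, minus strand) and *ATP5MC3* (chr2:175176258-175181710, minus strand) encode precursors of 136, 141 and 142 residues, whose last 77 residues are the same in the GENCODE version 44 coding sequences. The 231 coding bases of that stretch, joined across exons, are printed 5′ to 3′ because the 3 mRNAs give an identical protein from different RNA, with capitals at the 57 positions where the 3 genes do not all have the same base.
ATP5MC1: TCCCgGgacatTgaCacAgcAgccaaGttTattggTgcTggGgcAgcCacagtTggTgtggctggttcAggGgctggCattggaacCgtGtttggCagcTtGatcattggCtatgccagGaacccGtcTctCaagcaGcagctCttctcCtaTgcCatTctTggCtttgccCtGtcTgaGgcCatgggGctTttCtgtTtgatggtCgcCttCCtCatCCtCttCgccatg
ATP5MC2: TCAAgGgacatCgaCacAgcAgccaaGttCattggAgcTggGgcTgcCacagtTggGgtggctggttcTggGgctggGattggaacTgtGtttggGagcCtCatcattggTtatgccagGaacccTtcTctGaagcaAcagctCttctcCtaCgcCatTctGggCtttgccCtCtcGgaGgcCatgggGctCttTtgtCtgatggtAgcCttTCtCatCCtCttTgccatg
ATP5MC3: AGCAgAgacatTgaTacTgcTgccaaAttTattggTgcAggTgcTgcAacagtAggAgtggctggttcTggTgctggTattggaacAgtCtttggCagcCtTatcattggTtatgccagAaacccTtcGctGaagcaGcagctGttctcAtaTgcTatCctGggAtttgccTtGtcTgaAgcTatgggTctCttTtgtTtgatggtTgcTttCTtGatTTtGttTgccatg

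Of those 57 positions, 49 were last positions of a codon. The stretch of *ATP5MC1* was 88.3% identical to that of *ATP5MC2*, and *ATP5MC3* was 80.1% identical to either. The 4 letters CATA, CATC or CATT, read on the coding strand as the CAUH motif that IGF2BP proteins are known to prefer, occurred 5, 6 and 3 times in the stretches of *ATP5MC1*, *ATP5MC2* and *ATP5MC3*. The motif was in 100% of the 75 tested member transcripts and in 99.6% of all tested ones, so its presence set no transcript apart. The c subunit genes are described with the rest of complex V.

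Library totals ran from 9758759 to 14886414 counts. Markers fit the labelled line, with 9 of 9 Merkel cell carcinoma genes reaching 1 TPM (a share of transcripts scaled by length) and summed levels of 1650 to 2561 TPM in the IgG IP, against 1935 to 2659 in the IGF2BP3 IP libraries. Leukocyte and endothelial markers reached 1 TPM for none of 5 genes, the keratinocyte genes *KRT1* and *KRT14* were listed at 0 and *KRT5* at 0.54 to 1.33 TPM, and of 4 fibroblast genes only *DCN* reached 1 TPM, so that the summed fibroblast level was 35.8 to 54.1 TPM in the IgG IP, against 29.2 to 47.3 in the IGF2BP3 IP. Both libraries numbered replicate 1 stood apart from the other 4, and the genes of interest moved with them. The median member lay 0.18 above the IgG IP mean on the log2 scale in IgG IP replicate 1, and 0.08 and 0.13 below it in replicates 2 and 3 (medians -0.08 and -0.13). In the IGF2BP3 IP the medians were 0.03, -0.22 and -0.12. Replicate 1 was the highest library of either antibody, and the groups overlapped. Cytosolic ribosomal protein mRNAs, another group of short mRNAs, took 6.76% and 6.10% of the counts in the 2 replicate 1 libraries and 4.25% to 4.60% in the other 4. Its part in the members' values was not tested beyond leaving replicate 1 out.

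Taken as a group, the 80 genes gave 1.11%, 0.992% and 0.972% of all reads counted with IgG, against 0.974%, 0.900% and 0.957% in the IGF2BP3 IP libraries. The shares overlapped between the antibodies, with the highest in IgG IP replicate 1. In TPM, which counts molecules per length, they held 2.65%, 3.02% and 3.02% of the IgG IP and 2.50%, 2.84% and 2.89% of the IGF2BP3 IP libraries. In both groups replicate 1 was then the lowest library, opposite to its rank by counts.

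Levels per length differed far more between subunits than between antibodies. The 75 members tested for a difference ranged in mean TPM from 1.31 (*UQCRHL*) to 4994 (*NDUFB1*), with a median of 199, and 53 of them lay above 100 TPM. The median was 150 TPM in complex I, 119 in complex III, 351 in complex IV and 257 in complex V. The 15 core subunits, which are 7 of complex I, *UQCRC1*, *UQCRC2* and *UQCRFS1* of complex III and the 5 of the F1 head of complex V, had a median of 119 TPM against 255 for the other 60.

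By TPM, the 2 most abundant members of each complex were not among the core subunits. *NDUFB1* and *NDUFS5* led complex I, and *NDUFS5* was at 1222, 1354 and 1364 TPM in the IgG IP, against 1205, 1362 and 1383 in the IGF2BP3 IP. *UQCRB*, which binds ubiquinone in complex III, was at 868, 1128 and 1038 TPM in the IgG IP, against 685, 1029 and 1116 in the IGF2BP3 IP. *UQCRH*, the hinge protein that contacts cytochrome c1, followed at a mean of 841 TPM, below *UQCRB* in each of the 6 libraries although the ranges overlapped.
Complex IV was led by *COX6C* (1751, 1806 and 1802 TPM in the IgG IP, 1502, 1718 and 1803 in the IGF2BP3 IP), with *COX7C* next at 934 to 1564 TPM. *COX6C* was above *COX7C* within each of the 6 libraries, although the ranges over libraries overlapped. Complex V was led by *ATP5ME*, subunit e of the membrane part, at 1079 to 1449 TPM, above the 690 to 865 TPM of *ATP5PB*, subunit b of the stalk, in every library.

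**Figure D1:**
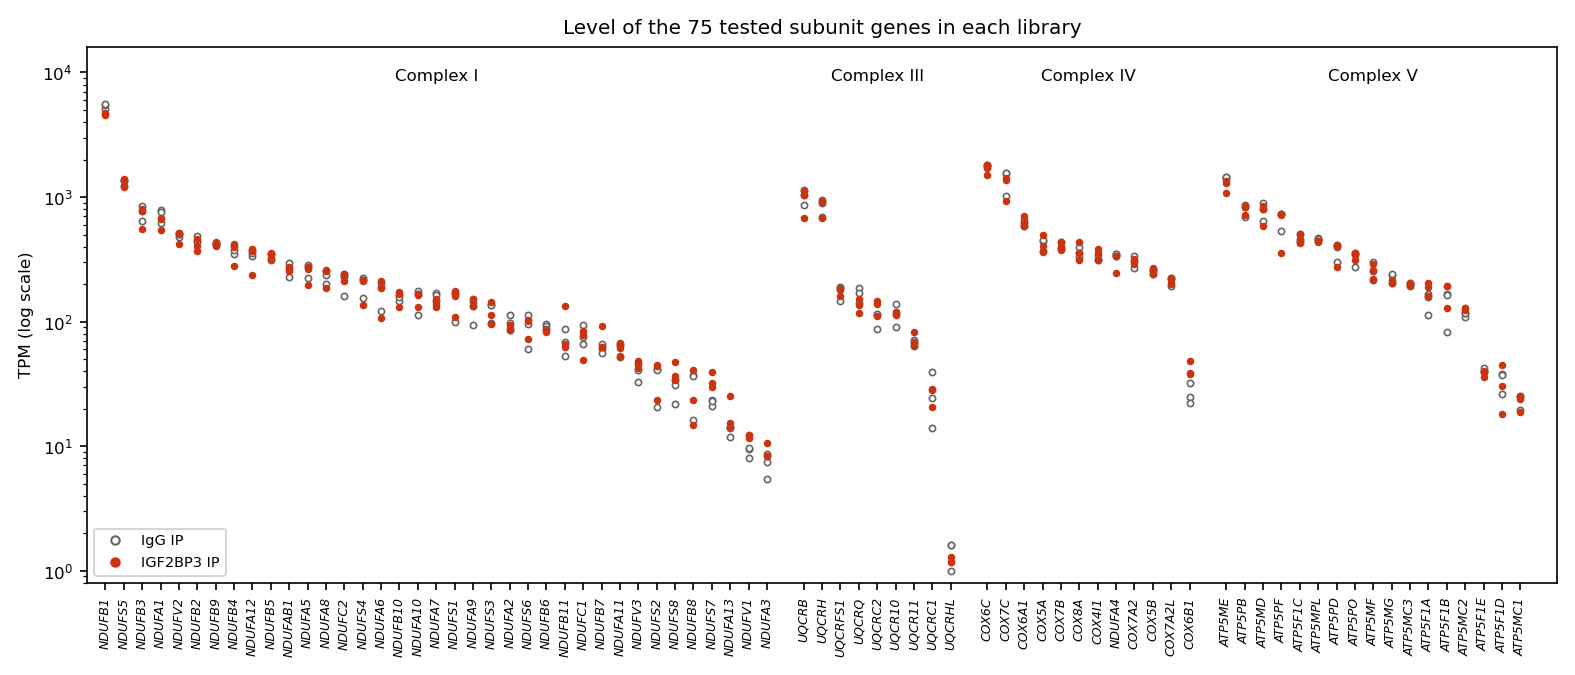
TPM (log axis) of each tested member in each of the 3 IgG IP (open points) and 3 IGF2BP3 IP (filled points) libraries, ordered by mean within a complex. Mean levels span from 1.31 TPM (*UQCRHL*) to 4994 (*NDUFB1*), while the points of the 2 antibodies lie over each other for most genes.

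The level of some members depended on the unit. The deposited TPM are estimates that divide reads among transcripts, and for genes that share sequence or position with another the deposited counts can be far lower than the TPM imply. For 13 members the length implied by counts and FPKM was under 15% of the annotated transcript, namely *ATP5MF*, *ATP5PO*, *COX6A1*, *COX8A*, *NDUFA7*, *NDUFA9*, *NDUFA11*, *NDUFA13*, *NDUFB5*, *NDUFB8*, *NDUFC2*, *NDUFV2* and *UQCRB*. Not all of these had few counts, as *UQCRB* had 6852 to 11710 over an annotated 8459 nt. *NDUFV2*, a redox subunit of complex I, was the clearest case of few counts for its level, with 420 to 512 TPM but only 32 to 46 counts. Its single named pseudogene held 45 to 96 counts, or 62.8% of both. No other member had over 5% of its counts on pseudogenes named after it, of which there were 161 for 46 members. *COX6A1* had 584 to 709 TPM and 123 to 181 counts, and an annotated protein-coding gene on the same strand overlaps it. *NDUFB1* and *ATP5ME* had short implied lengths of 66.9 and 53.6 nt, over which their TPM were scaled. In counts per kilobase of annotated transcript *NDUFB1* kept rank 1 of the 80, and *ATP5ME* had rank 14 in place of rank 3. The leading genes of complexes III and V changed with the unit. In library-scaled counts per kilobase, *UQCRH* (443) led complex III and *ATP5PF* (320) complex V, neither of them a core subunit. Core *UQCRFS1* (141) lay above *UQCRB* (86.5), and core *ATP5F1C* (267) above *ATP5ME* (212) and *ATP5PB* (186).

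No member passed the thresholds between the IGF2BP3 IP and the IgG IP in either direction. With the quasi-likelihood test of edgeR, adjusted by Benjamini-Hochberg over 14507 tested genes, and a call at a fold change of at least 1.5 with an adjusted p under 0.05, 0 of 75 members were higher (background 1.16% of tested genes) and 0 were lower (background 0%). Before adjustment, 1 member was higher (background 9.72%) and 10 were lower (background 3.1%) at p under 0.05. At an adjusted p alone, with no minimum fold, 0 members were called (background 1.4% higher and 0% lower). DESeq2 called 0 at both thresholds (background 0.963% higher and 0% lower), with 0 higher (background 4.19%) and 9 lower (background 1.44%) before adjustment. Limma-trend on log2(TPM + 1) called 0 (background 0.0201% higher and 0% lower), with 2 higher (background 5.45%) and 0 lower (background 0.523%) before adjustment. The smallest adjusted p from edgeR (quasi-likelihood, Benjamini-Hochberg) was 0.17, for *COX7C*.

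All 75 fitted differences were smaller than 1.5-fold, from -0.45 (*UQCRHL*) to 0.44 (*COX6B1*) on the log2 scale. The 95% interval lay within 1.5-fold on both sides for 49 members, for 60 it excluded a 1.5-fold higher share in the IGF2BP3 IP, and for 57 a 1.5-fold lower one. Of the 15 whose interval reached 1.5-fold higher, 6 had under 50 counts in a library, such as *NDUFA7* with 7 to 17 and *NDUFA13* with 6 to 17, and the other 9 had 61 to 638 counts. Standard errors ran from 0.07 to 0.44 with a median of 0.14, and 33 members had at least 1000 counts in every library. The 5 members below the filter on low counts were *ATP5MGL* (0 to 7 counts), *ATP5MF-PTCD1* and *COX6B2* (0 to 3), and *COX8C* and *COX4I2* (0 or 1), and none of them was tested.

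Below the thresholds, the direction was uneven. Of the 75 members 55 had a fitted value below 0, which is 73.3% against 51.1% of all tested genes, and their median log2 difference was -0.13 against -0.01. The medians of the complexes were close to each other at -0.12 for complex I, -0.14 for complex III, -0.15 for complex IV and -0.15 for complex V. For 14 members (18.7%, background 8.69%) every IGF2BP3 IP library lay below every IgG IP library, and for 2 (2.67%, background 12%) every one lay above. Between libraries of the same number, 35 members were lower in all 3 pairs (46.7%, background 23.5%) and 8 were higher in all 3 (10.7%, background 25.1%). The size of the lean depended on the library left out. The median of the members was further below 0 without IgG IP replicate 2 (-0.19) or 3 (-0.17). It was also further below 0 without IGF2BP3 IP replicate 1 (-0.19) or 3 (-0.14). Without IgG IP replicate 1, 42 of 75 members were below 0 (all tested genes, 7288 of 14887), their median was -0.03, and the medians of the complexes ran from -0.05 to -0.02. That fit kept IGF2BP3 IP replicate 1, in which the members were also high. Without both replicate 1 libraries the median of the members was -0.08, with 54 of 75 below 0 (all tested genes, 7334 of 14677). Without IGF2BP3 IP replicate 2 the median of the members was -0.08 with 54 below 0. With limma-trend on log2(TPM + 1) it was -0.0084 with 42 below 0. In that fit the median of all tested genes was 0.12, with 4007 of 14909 below 0. The members minus all tested genes were then at -0.12, as in the main fit.

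The calls depended on whether libraries were paired by replicate number. The 2 libraries of replicate 1 deviated together from their group means (r across genes 0.55). For replicates 2 and 3, same-numbered libraries (0.26 and 0.22) correlated no more than those of different numbers (0.26 and 0.27). A block by replicate number therefore mainly set replicate 1 apart. With this block 0 of 75 members passed both thresholds in either direction (background 3.56% higher and 0.103% lower). At an adjusted p under 0.05 with no minimum fold, however, 22 members were lower (29.3%, background 5.23%) and 4 were higher (5.33%, background 10.9%) in that blocked fit. Their log2 differences were small, from -0.32 to -0.16 for the 22 and from 0.18 to 0.39 for the 4. The 22 were *NDUFA1*, *NDUFA2*, *NDUFA5*, *NDUFA12*, *NDUFB1*, *NDUFB2*, *NDUFB3*, *NDUFB6* and *NDUFS4* of complex I, *UQCRB* of complex III, *COX6C*, *COX7A2L*, *COX7B*, *COX7C* and *NDUFA4* of complex IV, and *ATP5F1E*, *ATP5MC3*, *ATP5ME*, *ATP5MG*, *ATP5MPL*, *ATP5PB* and *ATP5PF* of complex V. The 4 were *NDUFS7*, *NDUFS8*, *ATP5F1A* and *ATP5F1B*. In the blocked fit with a correction for transcript length, 7 were lower (9.33%, background 6.68%) and 6 higher (8%, background 10.2%), which is near the background. With a correction for GC content and the block, 10 were lower (13.3%, background 2.11%) and 3 higher (4%, background 9.72%). Without both replicate 1 libraries, 6 were lower (8%, background 1.66%) and 2 higher (2.67%, background 7.85%). *COX7B* was among the lower genes of all 4 of these lists, and *ATP5F1B* among the higher genes of all 4. With limma-trend on log2(TPM + 1) the difference of *COX7B* was 0.0045, where the median of all tested genes was 0.12.

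**Figure D2:**
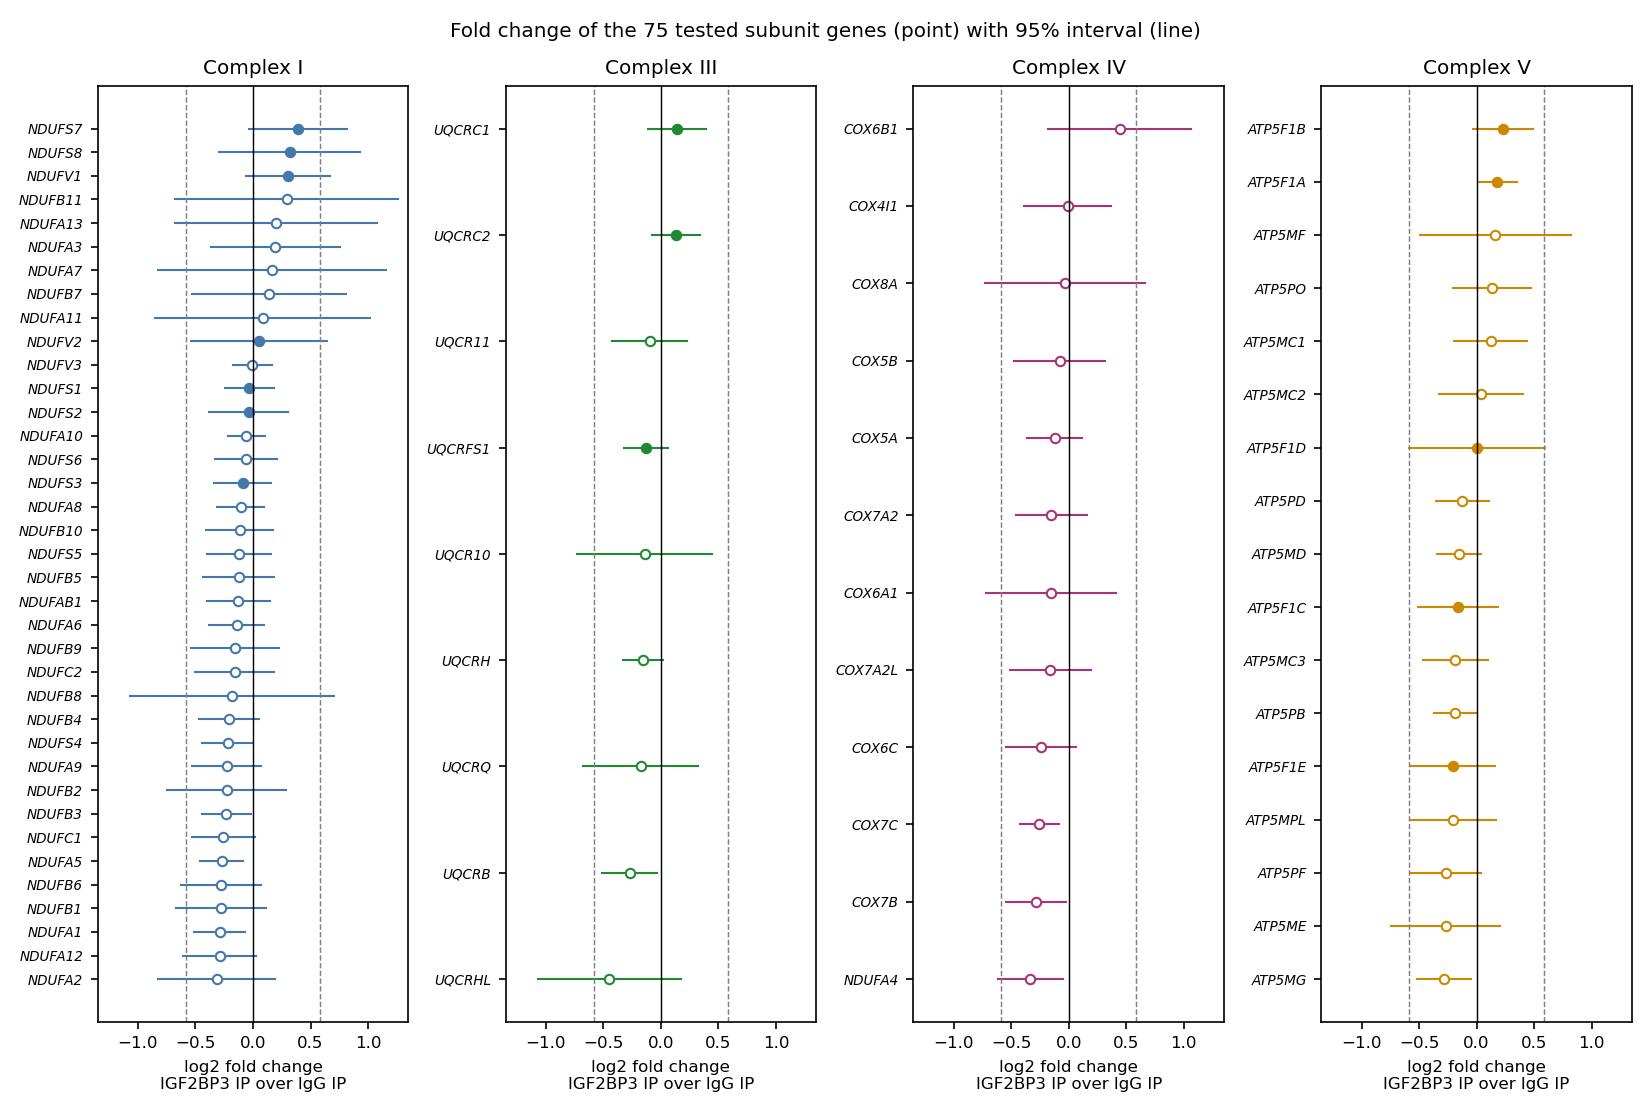
Log2 fold change of the IGF2BP3 IP over the IgG IP from edgeR (points) with its 95% interval (lines) for the 75 tested members by complex, n = 3 libraries a group. Filled points are core subunits and open points the others, dashed lines mark 1.5-fold, and all 75 points lie between the dashed lines while 15 intervals cross the right one and 18 the left one.

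Complex I takes electrons from NADH. Its tested genes were 7 nuclear core subunits, which bind NADH, flavin or iron-sulfur clusters or line the path to ubiquinone, and 30 others. The core subunits did not lean lower as the others did, with 3 of 7 below 0 (median 0.05) against 24 of 30 (median -0.15). This division into core and other subunits was made after the values were seen and carries no test.
*NDUFV1*, the subunit that binds NADH and flavin, had 11.1, 10.1 and 9.20 normalised CPM (counts scaled to library size) in the IgG IP, against 14.8, 11.1 and 11.5 CPM in the IGF2BP3 IP. The groups narrowly did not overlap, and the log2 difference was 0.31 ± 0.16 (SE, n = 3 a group, edgeR adjusted p = 0.48). *NDUFS7*, an iron-sulfur subunit near the ubiquinone site, had 17.8, 12.1 and 13.4 CPM in the IgG IP, against 22.8, 16.2 and 17.5 in the IGF2BP3 IP.
Each IGF2BP3 IP library was above the IgG IP library of its number, and the groups overlapped through IgG IP replicate 1, with a log2 difference of 0.39 ± 0.19 (edgeR adjusted p = 0.44, and 0.016 with the block). *NDUFS8*, another iron-sulfur subunit, showed the same order within pairs, with 22.9, 12.7 and 13.4 CPM against 27.3, 16.8 and 16.4 (log2 difference 0.32 ± 0.27, edgeR adjusted p = 0.67, and 0.045 with the block). The gap between replicate 1 and the other libraries of each antibody was larger than the gap between antibodies.

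Among the other complex I subunits the lowest values were those of *NDUFA2*, *NDUFA12* and *NDUFA1*. *NDUFA5*, close behind, had 366, 328 and 326 CPM in the IgG IP, against 268, 298 and 279 in the IGF2BP3 IP. No IGF2BP3 IP library reached the lowest IgG IP library, and the log2 difference was -0.27 ± 0.08 (edgeR adjusted p = 0.20). *NDUFA1* had 122, 111 and 100.0 CPM against 97.1, 86.0 and 89.3, which did not overlap either (-0.29 ± 0.10, edgeR adjusted p = 0.24).
*NDUFA2* and *NDUFA12* overlapped between the antibodies. *NDUFA2* had 54.7, 32.7 and 29.3 CPM against 36.3, 29.1 and 28.0. Its log2 difference of -0.31 was 0.01 without IgG IP replicate 1 and -0.12 without both replicate 1 libraries. *NDUFA12* had 122, 90.5 and 83.6 CPM against 74.3, 83.5 and 83.8, with a log2 difference of -0.29 ± 0.14. Here IGF2BP3 IP replicate 1 was the lowest library and replicates 3 of the 2 antibodies were level.
*NDUFB11* was among the 6 highest members through its replicate 1 libraries. It had 38.8, 16.6 and 21.3 CPM in the IgG IP, against 53.6, 18.8 and 20.6 in the IGF2BP3 IP, for a log2 difference of 0.29 ± 0.43, which became -0.36 without IGF2BP3 IP replicate 1. Both replicate 1 libraries stood far above the other 4 for this gene, and without both of them the log2 difference was 0.07.
The abundant *NDUFB1* had 406, 301 and 283 CPM against 337, 231 and 247, lower in each pair and overlapping between groups (-0.28 ± 0.17, edgeR adjusted p = 0.55, and 0.00088 with the block). Its log2 difference was -0.10 when IgG IP replicate 1 was left out, and -0.46 when IGF2BP3 IP replicate 1 was. Without both replicate 1 libraries it was -0.28 (edgeR adjusted p = 0.0023).

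Complex III hands electrons from ubiquinol to cytochrome c. The processing-peptidase-like core proteins *UQCRC1* and *UQCRC2* had fitted values above 0 and the Rieske iron-sulfur protein *UQCRFS1* below 0, and all 6 other genes of the complex were below 0 (median -0.17). *UQCRC2* had 151, 134 and 129 CPM in the IgG IP, against 163, 146 and 143 in the IGF2BP3 IP, higher in each pair but overlapping (0.13 ± 0.09, edgeR adjusted p = 0.61). *UQCRC1* had 23.1, 23.1 and 24.5 CPM against 28.3, 25.6 and 24.0 (0.14 ± 0.11). *UQCRFS1*, with 483, 443 and 440.0 CPM against 448, 394 and 405, was lower in each pair (-0.13 ± 0.08, edgeR adjusted p = 0.57).
None of these 3 had an adjusted p under 0.05 without or with the block, but with a further correction *UQCRFS1* was lower (length correction and block, edgeR adjusted p = 0.030) and *UQCRC2* higher (GC correction and block, edgeR adjusted p = 0.010). *UQCRB* had 864, 785 and 760.5 CPM against 575, 685 and 737, with no overlap (-0.27 ± 0.11, edgeR adjusted p = 0.32). *UQCRH* had 267, 240 and 249 CPM against 228, 219 and 231, also without overlap (-0.16 ± 0.08, edgeR adjusted p = 0.45). IGF2BP3 IP replicate 1 was the lowest library for *UQCRB*, whereas the 3 IGF2BP3 IP libraries lay close together for *UQCRH*.
*UQCRHL*, a single-exon copy of *UQCRH* on chromosome 1, had the lowest fitted value of all members (-0.45 ± 0.27, edgeR adjusted p = 0.54) from 31 to 50 counts. Its 4.88, 3.35 and 2.66 CPM in the IgG IP overlapped the 2.94, 2.42 and 2.52 CPM in the IGF2BP3 IP. Reads of *UQCRH* can also fit this copy, so its counts are uncertain.

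Complex IV reduces oxygen with catalytic subunits that are all encoded in mitochondrial DNA, so its 12 tested nuclear genes are accessory subunits. Of these, 11 had a fitted value below 0 and 1, *COX6B1*, above. *COX7C* had the smallest adjusted p of all members, with 401, 411 and 403 CPM in the IgG IP, against 322, 341 and 354 in the IGF2BP3 IP. The IgG IP libraries lay close together and above all IGF2BP3 IP libraries (-0.26 ± 0.07, edgeR adjusted p = 0.17, and 0.0014 with the block). Unlike for most members, IgG IP replicate 1 was not the highest IgG IP library here.
*NDUFA4* (chr7:10931943-10940153, minus strand) had 760.3, 551 and 556 CPM in the IgG IP, against 490.0, 488 and 503 in the IGF2BP3 IP. The groups did not overlap, and the log2 difference was -0.33 ± 0.12 (edgeR adjusted p = 0.30, and 0.0020 with the block). It was the 1 member with an adjusted p under 0.05 when no filter was set on low counts, at a log2 difference of -0.34, short of 1.5-fold, and its log2 difference was -0.16 without both replicate 1 libraries. *COX7B* had 383, 296 and 309 CPM against 289, 244 and 277, without overlap (-0.29 ± 0.11, edgeR adjusted p = 0.34). *COX6C* had 610, 450 and 431 CPM against 451, 388 and 419, and overlapped (-0.24 ± 0.13).
*COX6B1* (chr19:35648323-35658782, plus strand) lies on the side that faces cytochrome c and had the highest fitted value. It had 10.2, 5.29 and 4.92 CPM in the IgG IP, against 10.3, 9.06 and 7.80 in the IGF2BP3 IP, from 61 to 123 counts. IgG IP replicate 1 was as high as the IGF2BP3 IP libraries, and the log2 difference was 0.44 ± 0.27 (95% interval -0.18 to 1.07, edgeR adjusted p = 0.55). Without both replicate 1 libraries it was 0.72, and with the length correction and the block 0.62, and in these settings *COX6B1* was the single member past both thresholds (edgeR adjusted p = 0.019 and 0.010). With the length correction and the block, that is 1 of 75 higher (background 3.22%) and 0 lower (background 0.0838%), and without both replicate 1 libraries 1 of 75 higher (background 3.18%) and 0 lower (background 0.0545%).

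The tissue isoforms of complex IV were nearly all of the broadly expressed kind. *COX4I1* (1573 to 2125 counts), *COX6A1*, *COX7A2* (1389 to 1913 counts) and *COX8A* (68 to 116 counts) were measured, while the lung isoform *COX4I2*, the testis isoforms *COX6B2* and *COX8C*, and the muscle isoforms *COX6A2* and *COX7A1* had 0 to 3 counts in any library. *COX4I1* had a log2 difference of -0.01 ± 0.17, *COX6A1* -0.15 ± 0.25, *COX7A2* -0.15 ± 0.14 and *COX8A* -0.03 ± 0.31. All 4 overlapped between the antibodies. *COX7A2L*, whose protein helps to join complexes III and IV, had 308, 236 and 225 CPM against 280.0, 205 and 204 (-0.16 ± 0.16). It was lower in each pair and overlapped between the groups.

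Complex V makes ATP. Of its 5 F1 head subunits, *ATP5F1A*, the alpha subunit, was the 1 member above the IgG IP at an unadjusted p under 0.05. It had 221, 219 and 227 CPM in the IgG IP, against 258, 237 and 261 in the IGF2BP3 IP. The groups did not overlap, and the log2 difference was 0.18 ± 0.08 (edgeR adjusted p = 0.36, and 0.029 with the block). *ATP5F1B*, the catalytic beta subunit, had 147, 189 and 190.2 CPM against 188, 212 and 218, higher in each pair, with IGF2BP3 IP replicate 1 inside the IgG IP range (0.23 ± 0.11, edgeR adjusted p = 0.45, and 0.0065 with the block). IgG IP replicate 1 was the lowest IgG IP library for *ATP5F1B* as for 10 of the 75 members in all, and it was the highest for 60. The other F1 subunits did not share this direction. *ATP5F1C*, the gamma subunit, had 388, 282 and 266 CPM against 322, 252 and 264, lower in each pair and overlapping (-0.16 ± 0.15, edgeR adjusted p = 0.71). It was at 0.03 without IgG IP replicate 1 and at -0.08 without both replicate 1 libraries. *ATP5F1E*, the epsilon subunit, had 156, 117 and 111 CPM against 133, 93.1 and 107, also lower in each pair and overlapping (-0.20 ± 0.16, edgeR adjusted p = 0.65, and 0.032 with the block). It was at -0.033 without IgG IP replicate 1 and at -0.18 without both replicate 1 libraries. *ATP5F1D*, the delta subunit, was at 0.00 ± 0.26, and the median of the 5 was 0.00.
Of the 12 other tested genes 8 were below 0 (median -0.17). *ATP5MG*, subunit g, had 78.9, 67.3 and 63.4 CPM against 55.2, 58.8 and 58.0, without overlap (-0.28 ± 0.10, edgeR adjusted p = 0.28). *ATP5PB* had 564, 498 and 501 CPM against 471, 447 and 456, also without overlap (-0.19 ± 0.08, edgeR adjusted p = 0.38). *ATP5ME* had 91.3, 63.2 and 57.8 CPM against 75.6, 52.6 and 47.6, lower in each pair and overlapping (-0.27 ± 0.21). Its log2 difference was -0.046 when IgG IP replicate 1 was left out, and -0.49 when IGF2BP3 IP replicate 1 was. Without both replicate 1 libraries it was -0.27 (edgeR adjusted p = 0.044).

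The c subunit genes, whose coding stretches were given with the sequences, differed more in level than between antibodies. *ATP5MC3* was at 191 to 205 TPM, *ATP5MC2* at 108 to 128 and *ATP5MC1* at 18.9 to 25.4, with no overlap of these ranges over the 6 libraries. *ATP5MC1* had 13.5, 10.9 and 12.7 CPM in the IgG IP, against 13.2, 12.6 and 14.5 in the IGF2BP3 IP (0.12 ± 0.14, 95% interval -0.20 to 0.44). *ATP5MC2* had 53.8, 38.3 and 42.9 CPM against 55.6, 40.6 and 42.3 (0.04 ± 0.16, -0.32 to 0.40). *ATP5MC3* had 187, 143 and 141 CPM against 152, 128 and 133 (-0.19 ± 0.12, -0.47 to 0.09), was lower in each pair, and had an edgeR adjusted p of 0.58, and 0.047 with the block. Each overlapped between the antibodies, the 3 intervals overlapped each other, and a difference between the paralogs was not tested. *ATP5MC3* had the lowest GC content of the 3 transcripts at 38.5%, against 55.1% for *ATP5MC1* and 54.9% for *ATP5MC2*.

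**Figure D3:**
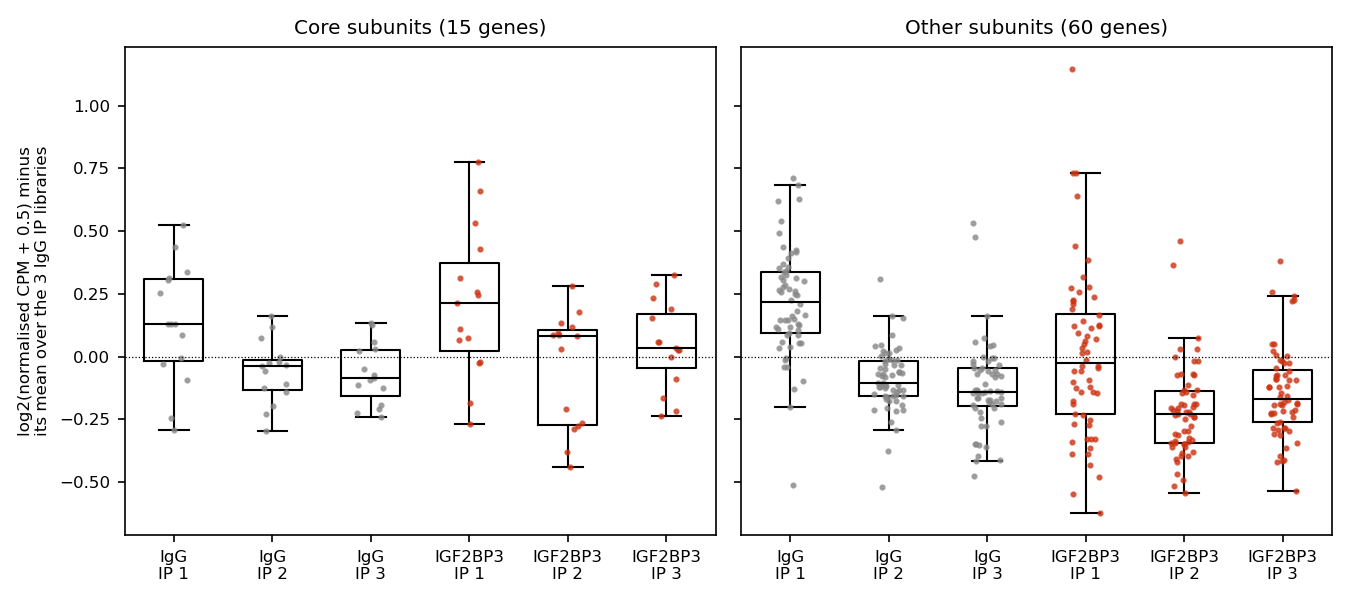
Log2(normalised CPM + 0.5) minus its mean over the 3 IgG IP libraries for the 15 core (left) and 60 other (right) tested subunit genes in each library, with points for genes and boxes for the median and quartiles, whose whiskers end at the last gene within 1.5 interquartile ranges. For the other subunits the medians are 0.22, -0.11 and -0.14 in the IgG IP, against -0.02, -0.23 and -0.17 in the IGF2BP3 IP, and for the core subunits 0.13, -0.04 and -0.08 against 0.21, 0.08 and 0.03.

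Over all complexes the 15 core subunits had a median log2 difference of 0.05, with 9 above 0, and the 60 others a median of -0.16, with 49 below 0. None of the 14 members with all IGF2BP3 IP libraries lowest was a core subunit, and both members with all of them highest, *NDUFV1* and *ATP5F1A*, were. The core median exceeded the other median by 0.21, and by 0.11 to 0.26 under the alternatives tried. These alternatives refit the same libraries, and the division was made after the values were seen, so the gap carries no test. The 2 groups also differed in their transcripts. Median annotated length was 1595 nt for the core and 667 nt for the other subunits, and median GC content 50.6% and 47.1%. The part of these properties in the gap was not tested beyond the corrections for length and GC content. Neither group, taken against all tested genes, kept a steady place. Relative to the median of all tested genes, the other subunits moved from -0.15 to -0.02 with the length correction, and the core subunits from 0.06 to -0.01 with limma-trend on log2(TPM + 1).

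**Figure D4:**
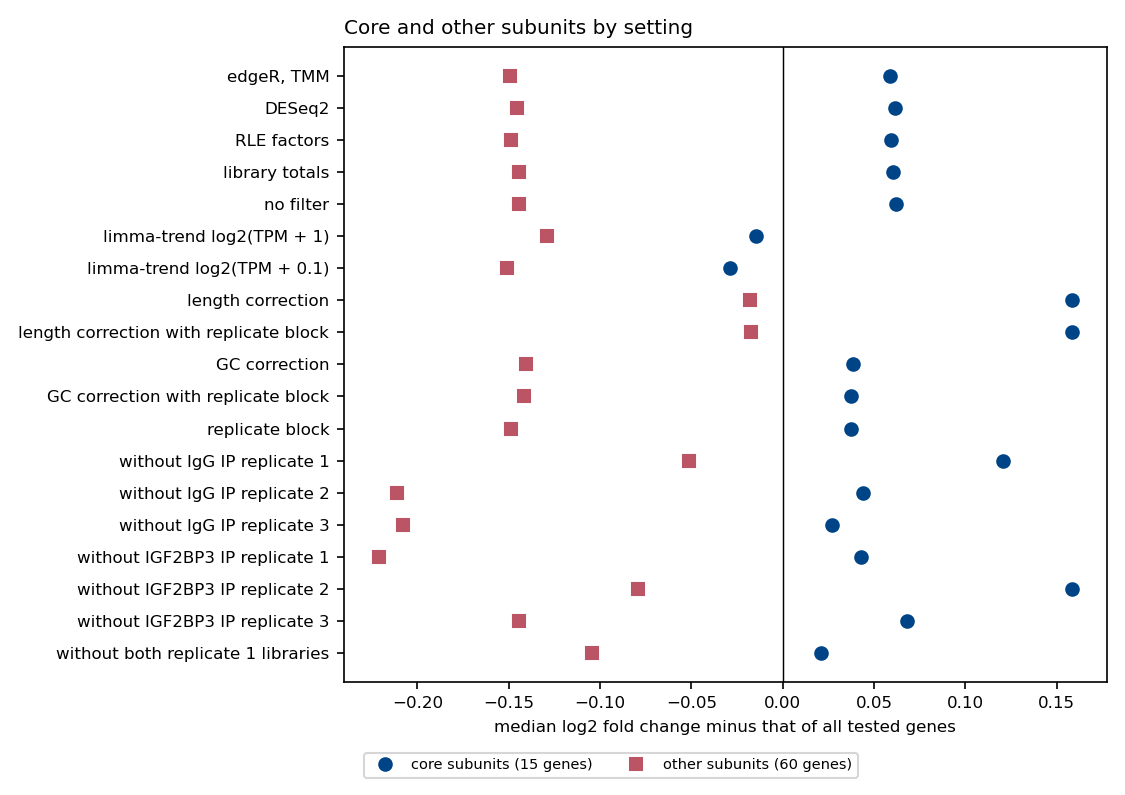
Median log2 fold change of the 15 core (circles) and 60 other (squares) subunit genes minus that of all tested genes, for each way of processing (vertical axis). The circle lies to the right of the square in every line, by 0.11 to 0.26, while the squares come within 0.02 of 0 with the length correction. The division into core and other subunits was made after the values were seen.

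The members' transcripts were short, with a median annotated length of 744 nt against 3018 nt for all tested genes, and had a similar GC content, with medians of 47.2% and 47.7%. GC content went with the fitted difference. Spearman's rho across genes was 0.65 over the 75 members and 0.41 over 14479 tested genes, which share libraries and are not independent. Of 26 members with a GC content up to 45%, 24 were below 0 (median -0.23, all tested genes -0.09). Of 24 members between 45% and 52%, 20 were below 0 (median -0.13, all tested genes 0.00), and of 25 above 52%, 11 were (median 0.04, all tested genes 0.13). In each of the 3 ranges the members lay below all tested genes, and the core subunits lay above the others, with medians of -0.08 and -0.25, 0.18 and -0.14, and 0.22 and -0.01. The core medians rested on only 6, 3 and 6 genes, and those of the others on 20, 21 and 19. After a per-library correction for GC content the members' rho was 0.10 and their median -0.11.
Annotated length ordered the members little (rho 0.04, against 0.20 over all tested genes). Of 36 members up to 700 nt, 27 were below 0 (median -0.15, all tested genes -0.11), of 17 between 700 and 1500 nt 11 were (median -0.10, all tested genes -0.06), and of 22 over 1500 nt 17 were (median -0.15, all tested genes 0.01). With a per-library correction for effective length, the length implied by the deposited counts and FPKM, the median of the members was -0.02, level with all tested genes at -0.01. That implied length was under 15% of the annotated transcript for 13 members, and 2550 nt for the 276 nt transcript of *UQCRHL*. The correction takes these values as they are. The CAUH letters occurred 10.8 times per kilobase in the median member and in the median tested transcript. GGACT, a form of the m6A consensus, was present in 65.3% of member transcripts and in 87.0% of all tested ones, which are longer, and both motifs were sought on the transcript strand only.

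**Figure D5:**
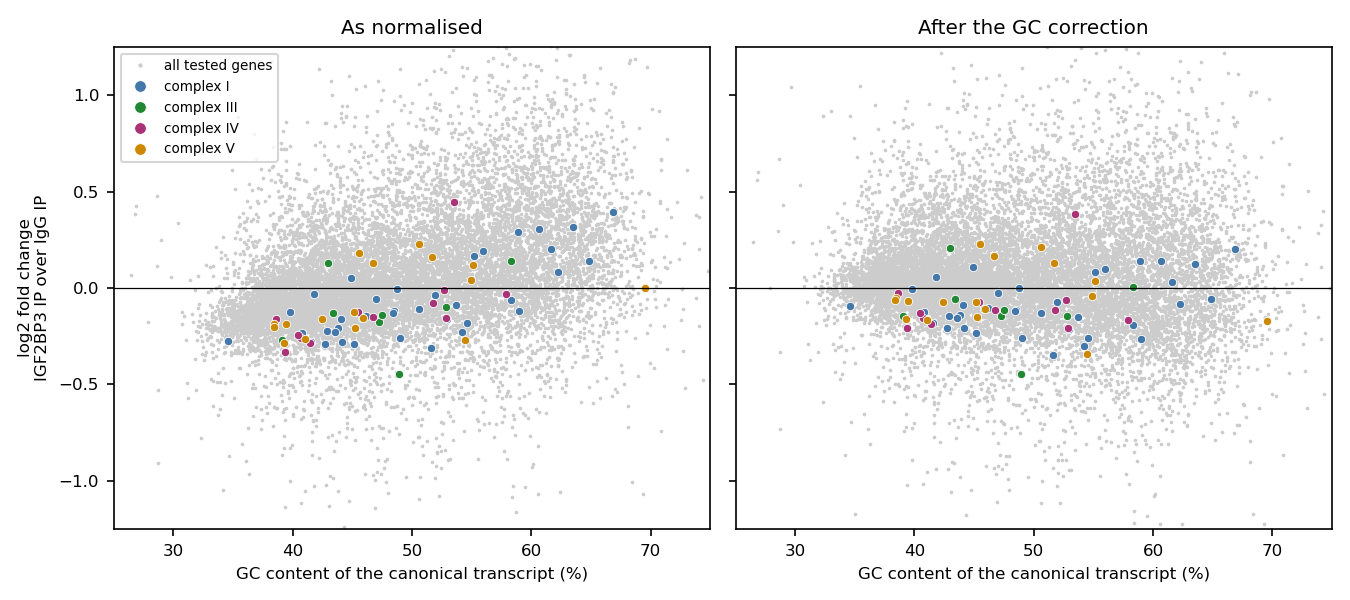
Log2 fold change of the IGF2BP3 IP over the IgG IP against the GC content of the canonical transcript for all tested genes (grey) and the members by complex (colours), as normalised (left) and after the per-library GC correction (right). Members lie higher at higher GC content on the left (rho 0.65) and little so on the right (rho 0.10), and 51 and 38 of the 14479 genes lie outside the axes.

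Other genes of the pathway were lists of related function and were read beside the members. The 4 subunits of complex II, which feeds electrons from succinate, were all below 0 with 0 called (median -0.14). *CYCS*, cytochrome c itself, had 1320.5, 1204 and 1168 CPM in the IgG IP, against 1064, 1072 and 944 in the IGF2BP3 IP, with no overlap (-0.26 ± 0.09, edgeR adjusted p = 0.24, and 0.00083 with the block).
Of 49 tested assembly factors 0 were called and 36 were below 0 (median -0.11). The highest of these was *NDUFAF3*, a complex I assembly factor, with 13.2, 13.9 and 13.4 CPM against 17.9, 20.8 and 20.6. The groups did not overlap, yet its log2 difference of 0.55 ± 0.12 missed the thresholds (edgeR adjusted p = 0.077, and 0.00087 with the block, still short of 1.5-fold). It had a larger value than any member, and was named after its value was seen.
The 14 citric acid cycle enzymes split evenly around 0 (median -0.01), and 0 were called. Those above the IgG IP at an unadjusted p under 0.05 included *CS*, *OGDH* and *IDH2*, with log2 differences of 0.30, 0.38 and 0.33.
Of 8 tested regulators of respiratory genes 0 were called, and *PPARGC1A* had no count. *PPRC1* had the widest value (0.61 ± 0.30, edgeR adjusted p = 0.45), from 27 to 131 counts, and passed both thresholds with the block at an adjusted p of 0.012. *TFAM*, which maintains mitochondrial DNA, was at -0.20 ± 0.08 (edgeR adjusted p = 0.35).
All 12 tested protein-coding genes of mitochondrial DNA, whose products join the members in complexes I, III, IV and V, were below 0 (median -0.16) and 0 were called.
Ribosomal protein genes, also with short mRNAs, were mostly below 0 as well. Of 83 tested cytosolic ribosomal protein genes 63 were below 0 (median -0.13), and of 76 tested mitochondrial ribosomal protein genes 63 were (median -0.11). Among these, 0 and 1 genes were called. With the block and no minimum fold, 33.7% and 18.4% of these lists were lower, beside 29.3% of the members. The medians of all 3 lists were within 0.05 of 0 after the length correction. Without IgG IP replicate 1 they were 0.14 for the cytosolic and 0.0034 for the mitochondrial ribosomal protein genes, beside -0.03 for the members and 0.0014 for the assembly factors. That fit kept IGF2BP3 IP replicate 1, in which cytosolic ribosomal protein mRNAs also took a larger share than in replicates 2 and 3.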

How the data were processed

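RIP-seq libraries of WaGa cells (IgG IP, n = 3, and IGF2BP3 IP, n = 3) were grouped and numbered by their labels. Reads (150 bp, paired end) were aligned by the authors to GRCh38 with STAR 2.7.9a and quantified with RSEM on GENCODE version 37. The authors deposited raw counts per gene as whole numbers, and these were tested. The deposited TPM served for levels and the deposited FPKM, with the counts, for the effective length of each gene. The program behind the counts and its use of strand were not given in the sources used here, so overlapping and antisense genes are uncertain.

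Genes were filtered with filterByExpr, normalised by TMM, and fitted on the whole table with edgeR 4.0.16 in R 4.3.3 (quasi-likelihood test, condition as the only term, Benjamini-Hochberg over 14507 genes). Calls needed a fold change of at least 1.5 and an adjusted p under 0.05, the thresholds of the study. Values are normalised CPM, and ± is the standard error of the log2 difference. Alternatives were DESeq2 1.42.0, RLE factors, library totals, no filter beyond 1 count, limma-trend on TPM (limma 3.58.1, log2 after adding 1 or 0.1) for genes over 0.5 TPM in 3 libraries, per-library loess corrections (span 0.5) for length and GC content, a replicate block, and leaving out each library. Fits with the block and no minimum fold, and without both replicate 1 libraries, were chosen after seeing the data.

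Same-numbered libraries correlated in their deviations from the group means (r across genes 0.55, 0.26 and 0.22 for replicates 1 to 3), which is the source of the pairing. Replicates 2 and 3 of different numbers correlated as much (0.26 and 0.27), so the block mainly sets replicate 1 apart.

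Transcript length, GC content, coordinates and coding sequences came from canonical transcripts of GENCODE version 44 on GRCh38, which held all 80 members and 14479 tested genes. Symbols are those of version 37; *ATP5MD* and *ATP5MPL* are now *ATP5MK* and *ATP5MJ*. Named members were those past the thresholds, the 6 highest and 6 lowest log2 differences, the 2 highest mean TPM of each complex, and paralog families. *ATP5F1A*, *ATP5F1C*, *ATP5F1D*, *ATP5F1E*, *ATP5MG*, *NDUFA5*, *UQCRC1*, *UQCRC2* and *UQCRFS1* were added after their values were seen. The members and lists were chosen with earlier results of these data known. The count of 3 libraries a group and the counts per gene set the precision, and the smallest p of an exact two-sided permutation test here is 0.1, so none was used.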

Additional observations from a re-analysis of the deposited data

How the results depend on the processing

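No member passed both thresholds with DESeq2, RLE factors, library totals, no filter, limma-trend, the length or GC correction, the replicate block, the GC correction with the block, or without any single library, and 1 did, *COX6B1*, with the length correction and the block and without both replicate 1 libraries. With no minimum fold, the counts higher and lower were 4 and 22 with the block, 6 and 7 with the block and length correction, and 3 and 10 with the block and GC correction. Of all tested genes (169 higher, 0 lower) DESeq2 called 281 higher, no filter 359 and 1 lower, limma-trend 3 with either pseudocount, and the GC correction 111. The block gave 517 and 15, block and length correction 461 and 12, block and GC correction 350 and 25, and leaving out both replicate 1 libraries 466 and 8. With no minimum fold these were 1587 and 759, 1458 and 957, and 1408 and 305 for the 3 blocked fits. Leaving out single libraries gave 0 (IGF2BP3 IP replicate 2) to 244 (IGF2BP3 IP replicate 1) higher, with 19, 7 and 23 without IgG IP replicates 2 and 3 and IGF2BP3 IP replicate 3. The cause of these changes was not tested.

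The median of the members was below 0 under every alternative, from -0.19 to -0.03 without single libraries. Limma-trend moved the median of all tested genes to 0.12 and 0.14 (pseudocounts 1 and 0.1), and there the median of complex I was -0.0098 and -0.0098, and that of the members minus all tested genes -0.12 and -0.15. With the length correction, without and with the block, complex I was at -0.011 and -0.011 and complex V at 0.0095 and 0.0086. The sign turned for some members. The values were *ATP5MC1* -0.035 and -0.036, *ATP5PB* 0.0055 and 0.0055, *COX4I1* 0.12 and 0.12, *COX6A1* 0.039 and 0.039, *COX7B* 0.0045 and 0.0046, *COX8A* 0.024 and 0.024, *NDUFS5* 0.0022 and 0.0022 and *UQCRFS1* 0.0068 and 0.0069 with limma-trend, and *COX4I1* 0.11 and 0.10, *COX6A1* 0.022 and 0.012, *COX8A* 0.17 and 0.17 and *NDUFS5* 0.028 and 0.027 with the length correction, without and with the block. They were *ATP5MC2* -0.041 and -0.044 with the GC correction, without and with the block, *COX4I1* 0.036 and *COX8A* 0.016 with library totals, and *COX8A* 0.0014 with the block and 0.28 without both replicate 1 libraries. *ATP5F1D*, at 0.0025, was at -0.012 with DESeq2, -0.0093 with RLE factors, -0.0054 with no filter, -0.17 and -0.18 with limma-trend, -0.016 with the block, -0.17 and -0.18 after GC correction (without and with the block) and -0.012 without both replicate 1 libraries. Over the fits without single libraries the ranges were *ATP5F1C* from -0.27 to 0.030, *ATP5F1D* from -0.26 to 0.25, *ATP5MC2* from -0.11 to 0.19, *COX4I1* from -0.17 to 0.16, *COX6A1* from -0.32 to 0.13, *COX8A* from -0.24 to 0.41, *NDUFA2* from -0.48 to 0.0066, *NDUFB11* from -0.36 to 0.71 and *NDUFS5* from -0.20 to 0.022. The cause was not tested.

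The depth limits *NDUFA7*, *NDUFA11*, *NDUFA13* and *NDUFB8* most, with 6 to 26 counts. For 15 members the 95% interval reached 1.5-fold higher and for 18 it reached 1.5-fold lower. The correction for length and the one for GC content remove any true difference that goes with these properties, so neither value is preferred here.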
